A study of Homo sapiens with 12 samples.

Results

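The histone genes were taken as every array probe whose platform gene symbol begins with H1-, H2AC, H2BC, H3C, H4C, H2AZ, H2AX, H2AJ or H3-3, whether or not the probe rose above background. This gave 90 of the 47323 probes and 78 of the 20046 gene symbols on the array. Of the 78 genes, 69 were replication-dependent and 9 were variants, and 1 further probe carries several symbols and is left unnamed. The values come from A549, a human non-small cell lung cancer line, sampled 24 h after transfection with a plasmid for the semaphorin SEMA5A or with a control plasmid. Full is the full-length protein, ECD its extracellular domain, ICD its intracellular domain, and Empty the control plasmid, with 3 single-colour Illumina arrays in each of these 4 groups. The labels do not say whether the 3 arrays of a group were separate transfections, so every p-value measures the spread between arrays, which may be technical. All groups went through the same transfection reagent, and the share of cells that took up each plasmid was not analysed here.

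Histones package DNA into nucleosomes: H2A, H2B, H3 and H4 form the core around which DNA is wrapped, and linker histone H1 binds the DNA between cores. Replication-dependent histone genes lie in clusters, lack introns, are transcribed mainly in S phase when new DNA needs packaging, and make mRNAs that end in a stem-loop in place of a poly(A) tail. Variant histone genes are scattered through the genome, are mostly spliced and polyadenylated, and are transcribed through the cell cycle. Amplification kits of the type named in the labels prime on poly(A) tails. The part that the presence or length of a tail plays in the readings of the replication-dependent genes was not tested. Many copies within a family are near-identical in sequence. Probe sequences were not used here, so a probe may also read related copies, and the assignment of a signal to 1 copy is uncertain.

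A probe was taken as above background on an array where its detection p was under 0.05, and it entered the tests when that held on all 3 arrays of at least 1 group. Of the 90 histone probes, 48 entered, which gave 43 tested genes with 1 probe each: 36 replication-dependent and 7 variant. The other 35 genes, 33 replication-dependent and 2 variant (H1-7 and H1-8), were not tested. By family, the probes that entered were 2 of 6 for replication-dependent H1, 11 of 19 for H2A, 12 of 23 for H2B, 7 of 15 for H3 and 7 of 15 for H4. Among variant probes, 4 of 4 for H2A, 4 of 4 for H3 and 1 of 3 for H1 entered. All 12 arrays read 43 histone probes above background, no array read 28, and each array read between 44 and 52. A gene that did not enter has no difference to report, and its absence from the tests says nothing about its direction.

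**Figure D1:**
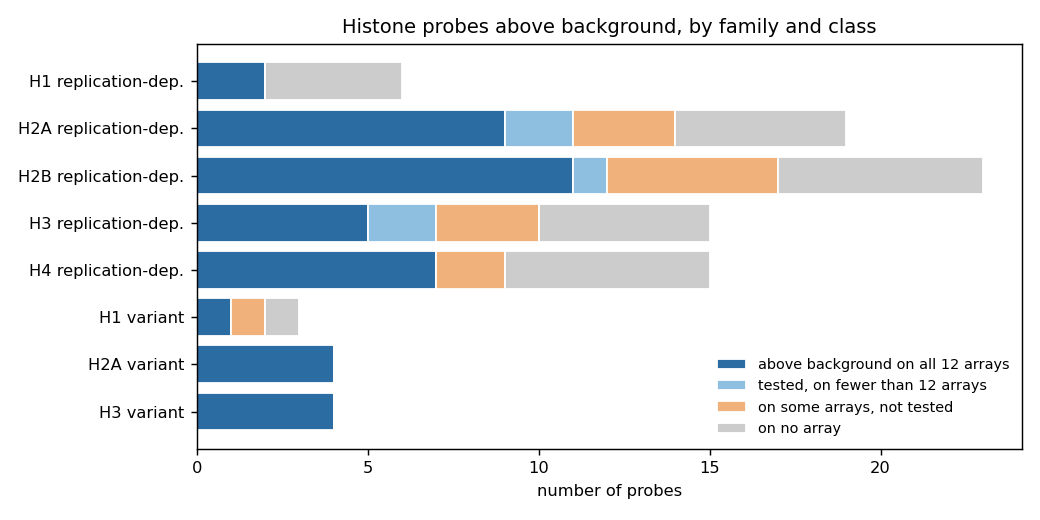
Horizontal stacked bars give the number of histone probes (x axis) in each family and class (y axis), divided by the number of arrays on which they were above background. The replication-dependent families hold both entering and undetected probes, and the variant H2A and H3 probes entered the tests, 4 of 4 in each.

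Each array read between 18659 and 20366 of all probes above background. Pearson's r over all features ran between 0.989 and 0.996 within groups and between 0.983 and 0.993 across groups. The 3 Full arrays were spread along the second principal component, at 11.8, -0.37 and 22.0 for replicates 1, 2 and 3. The 2 probes for SEMA5A were above background in 0 of 24 readings, so the arrays do not check the transfected gene. The epithelial genes KRT8, KRT18 and NQO1 were above background on all 12 arrays, while KRT19, CDH1 and AKR1C1 were not above background on any. The endothelial markers PECAM1, CDH5 and VWF and the T-cell marker CD3E were at background on all 12, as was the fibroblast marker LUM, and PTPRC, CD14, COL1A1, COL1A2 and DCN were above it on between 1 and 5. Values below are background-corrected, quantile-normalized log2 intensities, differences are between group means on that scale with the standard error of the fit, and a gene is called where limma's test gave an adjusted p under 0.05 over all 15338 features.

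With ICD, most replication-dependent histone genes read below Empty, and 5 of 43 histone genes were called. H2AC6, H2BC5, H2BC11 and H2BC6 fell, all of them core H2A or H2B genes, and H4C3, a histone H4 gene, rose. The shares of the histone genes called were 2.33% higher and 9.30% lower, beside 3.33% higher and 2.68% lower over all features (6.01% in either direction). With ECD, 8 of 43 were called. H4C3 rose, while H2AC6, H2BC5, H2BC11, H3C7, H3C8, H3C13 and the variant H2AJ fell. That is 2.33% higher and 16.3% lower, beside 6.04% higher and 5.37% lower over all features (11.4% in either direction). With Full, H2AC6 alone among the 43 was called and fell, which is 2.33% lower beside 0.267% lower over all features (1.08% in either direction, 0.808% higher). At an unadjusted p under 0.05, 7 histone genes passed with Full, 14 with ECD and 15 with ICD. The share of all features under that threshold was not counted, here or for the unadjusted counts given below. Such counts therefore do not show whether histone genes differ from other features. These 3 comparisons share the same Empty arrays and are not independent of each other. In RNA from whole cultures, a smaller share of cells in S phase and less histone RNA per cell cannot be told apart. Because the amplification primes on poly(A) tails, whether lower readings of replication-dependent genes reflect less histone RNA in total was not tested.

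The lower calls with ECD depend on the scaling of the arrays. When arrays were scaled to a common median in place of quantile normalization, the 7 lower calls with ECD ended, the higher call of H4C3 stood, and H3-3B, H4C5 and H2BC15 were newly called higher, making 4 calls in all. The median of all features then lay at 0.11 log2. Relative to that median, 35 of 43 histone genes were below it with ECD under median scaling and 32 of 43 under quantile normalization. Relative to 0 the numbers were 21 and 32 of 43. Leaving out 1 array left 1 ECD call without ECD replicate 3, 2 without Empty replicate 2 or 3, 3 without ECD replicate 1 or 2, and 4 without Empty replicate 1.

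**Figure D2:**
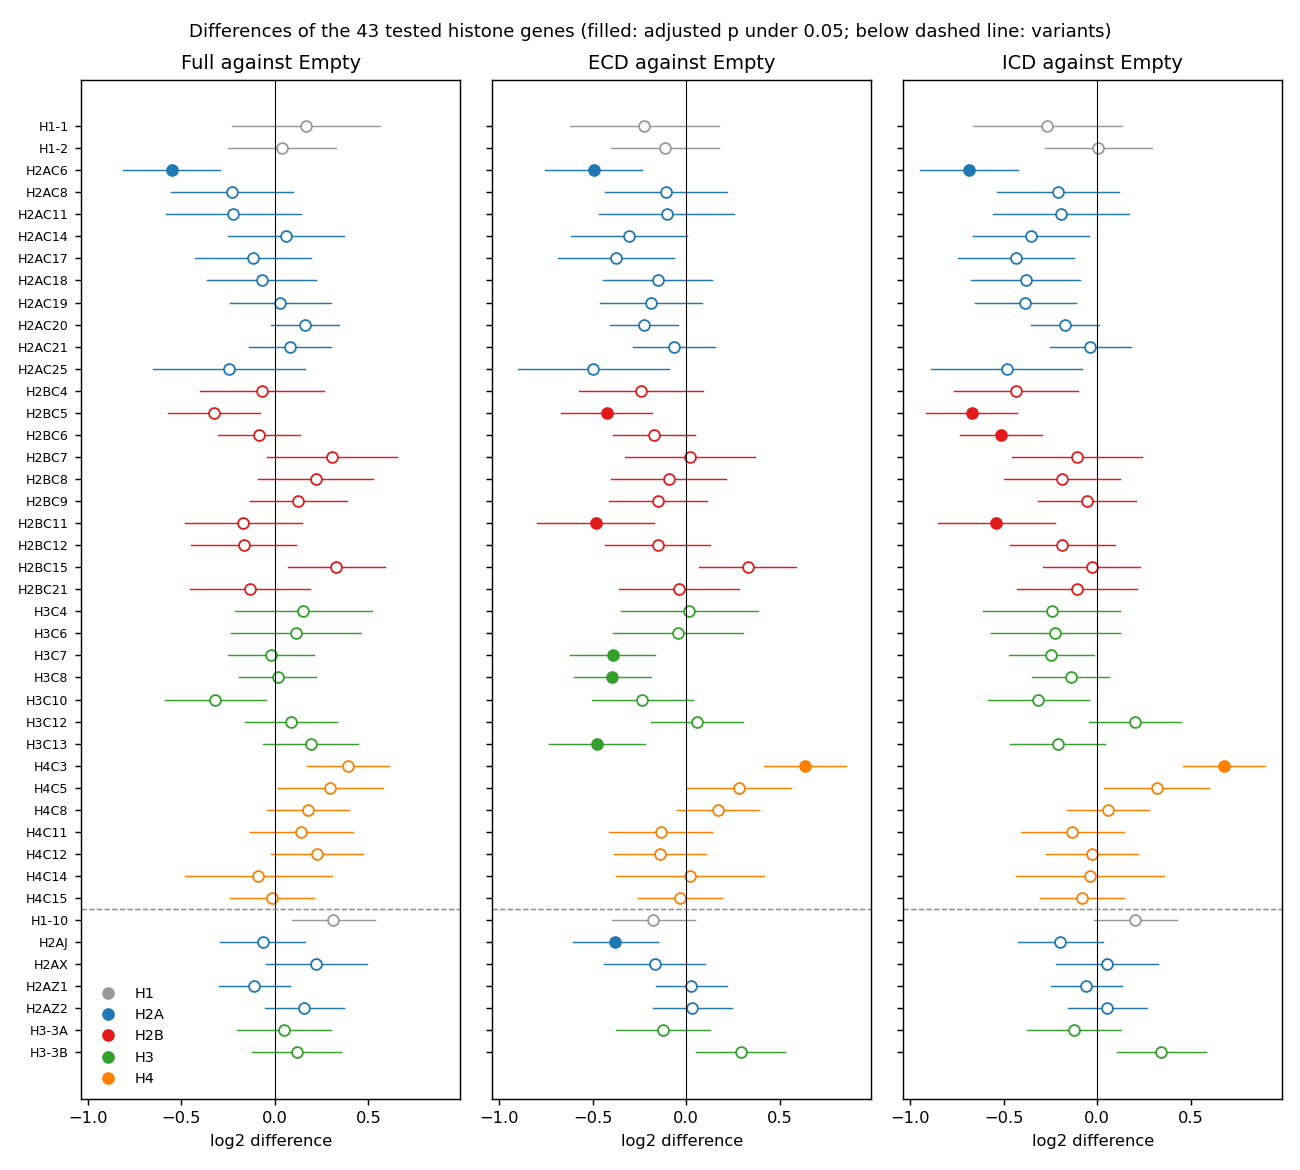
Points give the log2 difference of each of the 43 tested histone genes (y axis) with each construct against Empty (x axis, one panel per construct), coloured by family and filled where called, with variants below the dashed line. With ICD, 31 of 36 replication-dependent genes lie left of 0, with ECD 28 of 36, and with Full 16 of 36.

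H2AC6 encodes a core histone H2A and was called in all 3 comparisons with Empty. Its normalized log2 intensities were 7.43, 7.50 and 7.51 with Full, 7.60, 7.70 and 7.32 with ECD and 7.44, 7.19 and 7.41 with ICD, against 7.82, 8.21 and 8.07 with Empty. Every array with a construct lay below every Empty array. The difference was -0.55 ± 0.12 with Full (1.47-fold lower, limma adjusted p = 0.043), -0.49 with ECD (1.41-fold lower, adjusted p = 0.020) and -0.69 with ICD (1.61-fold lower, adjusted p = 0.0058). The ICD call held in all 6 fits that left out 1 array. The call with Full ended in 4 of these 6 fits, without Full replicate 1 or 3 or Empty replicate 2 or 3, with adjusted p up to 0.20, and the call with ECD ended without ECD replicate 3 or Empty replicate 2 or 3.

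H2BC5 encodes a core histone H2B. Its log2 intensities were 8.76, 9.15 and 8.98 with Full, 8.84, 9.02 and 8.74 with ECD and 8.75, 8.47 and 8.64 with ICD, against 9.33, 9.28 and 9.27 with Empty. The Empty arrays lay within 0.1 log2 of each other and above all 9 construct arrays. The gene fell with ICD by 0.67 ± 0.11 (1.59-fold lower, limma adjusted p = 0.0048) and with ECD by 0.43 (1.34-fold lower, adjusted p = 0.029), and the difference with Full was -0.33 (adjusted p = 0.21). A further entering H2B probe for the same gene, tested as its own feature, read -0.29 with Full (adjusted p = 0.22), -0.57 with ECD (adjusted p = 0.0039) and -0.62 with ICD (adjusted p = 0.0040). In that fit of every entering probe, limma called 1.07% of all probes with Full, 11.3% with ECD and 6.51% with ICD. Both entering probes are assigned to the same RefSeq transcript. A probe assigned to another transcript of H2BC5 did not enter. It was above background on 1 Full and 2 ECD arrays and on 0 ICD and 0 Empty arrays. The ECD call by the first probe ended in 5 of the 6 fits that left out 1 array (every one but that without ECD replicate 2), with adjusted p up to 0.11, while the ICD call held in all 6.

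H2BC11 also encodes an H2B. It read 6.33, 6.13 and 6.59 with Full, 6.15, 6.20 and 5.74 with ECD and 5.77, 6.01 and 6.15 with ICD, against 6.38, 6.63 and 6.54 with Empty. All ECD and ICD arrays lay below all Empty arrays, and the Full arrays overlapped them. The difference was -0.48 ± 0.15 with ECD (1.40-fold lower, limma adjusted p = 0.046) and -0.54 with ICD (1.45-fold lower, adjusted p = 0.044), and -0.17 with Full (adjusted p = 0.63). Neither call held when any 1 of its arrays was left out, with adjusted p between 0.054 and 0.15 for ICD and between 0.061 and 0.18 for ECD, and the ICD call also ended with median scaling. Without background correction the differences were -0.23 with ECD and -0.26 with ICD.

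H2BC6 encodes a further H2B. It read 5.57, 5.58 and 5.45 with Full, 5.32, 5.48 and 5.52 with ECD and 5.03, 5.30 and 4.98 with ICD, against 5.61, 5.55 and 5.69 with Empty. The ICD arrays lay below all other arrays, and the ECD arrays lay just below Empty. The gene fell with ICD by 0.51 ± 0.10 (1.43-fold lower, limma adjusted p = 0.011), with differences of -0.17 with ECD (adjusted p = 0.29) and -0.08 with Full (adjusted p = 0.76). The ICD difference was -0.17 without background correction and -0.28 with an offset of 50, still called. Without Empty replicate 3 the ICD adjusted p by limma was 0.058, and the number of histone genes called with ICD was then 3.

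The start regions of these 4 H2A and H2B genes and of the variant H2AJ are shown because these genes carry the lower calls of their families. They are RefSeq promoter windows on GRCh38.p14, read 5′ to 3′ along the gene's own strand and 300 bases long. Capitals mark the CCAAT box (CCAAT or its reverse complement ATTGG), the TATA box (TATAAA or TTTATA) and the octamer (ATTTGCAT or ATGCAAAT), the last of which is bound by POU2F1 and is a known element of H2B promoters.
H2AC6 (chr6:26123922-26124221, plus strand): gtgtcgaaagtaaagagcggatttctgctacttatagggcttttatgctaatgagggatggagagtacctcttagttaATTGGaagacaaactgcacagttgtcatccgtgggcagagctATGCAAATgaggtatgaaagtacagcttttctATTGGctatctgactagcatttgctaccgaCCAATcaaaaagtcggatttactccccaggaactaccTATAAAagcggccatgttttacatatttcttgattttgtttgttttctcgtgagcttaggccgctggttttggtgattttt
H2BC5 (chr6:26157871-26158170, plus strand): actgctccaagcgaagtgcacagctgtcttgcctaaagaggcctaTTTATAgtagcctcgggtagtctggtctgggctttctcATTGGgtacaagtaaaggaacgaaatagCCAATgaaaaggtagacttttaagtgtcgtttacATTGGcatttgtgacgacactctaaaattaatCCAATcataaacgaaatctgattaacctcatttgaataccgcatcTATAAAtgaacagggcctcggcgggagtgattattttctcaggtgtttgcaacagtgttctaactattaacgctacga
H2BC11 (chr6:27132746-27133045, minus strand): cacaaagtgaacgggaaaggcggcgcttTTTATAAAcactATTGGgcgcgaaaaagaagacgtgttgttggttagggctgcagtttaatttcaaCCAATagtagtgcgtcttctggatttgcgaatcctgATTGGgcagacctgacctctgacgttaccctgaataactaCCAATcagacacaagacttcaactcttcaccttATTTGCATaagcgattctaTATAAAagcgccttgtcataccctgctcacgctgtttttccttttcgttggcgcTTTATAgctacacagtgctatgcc
H2BC6 (chr6:26183511-26183810, plus strand): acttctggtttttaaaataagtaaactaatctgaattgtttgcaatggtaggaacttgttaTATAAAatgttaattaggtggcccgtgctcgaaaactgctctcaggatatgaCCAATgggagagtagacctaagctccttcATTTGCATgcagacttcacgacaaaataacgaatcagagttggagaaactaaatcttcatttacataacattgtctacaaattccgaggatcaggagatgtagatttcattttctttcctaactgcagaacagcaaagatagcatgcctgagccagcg
H2AJ (chr12:14774155-14774454, plus strand): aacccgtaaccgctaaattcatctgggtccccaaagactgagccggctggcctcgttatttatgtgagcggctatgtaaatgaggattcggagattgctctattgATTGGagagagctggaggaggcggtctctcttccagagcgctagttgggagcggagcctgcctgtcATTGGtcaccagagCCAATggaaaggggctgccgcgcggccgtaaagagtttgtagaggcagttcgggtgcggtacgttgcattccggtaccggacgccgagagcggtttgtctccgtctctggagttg

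Both strands were searched, and no 2 different motifs overlapped. H2AC6 held 3 CCAAT matches, 1 TATA match and 1 octamer, H2BC11 held 4, 4 and 1, and H2BC6 held 1 of each. Counted from the start site, the TATA match of H2AC6 lies at -31 to -26 and that of H2BC6 at -189 to -184. Those of H2BC11 lie at -28 to -23, at -220 to -215, at -222 to -217 and, past the start, at 27 to 32. In H2BC11, the pair near -220 lie on opposite strands and overlap each other. H2BC5 held 4 CCAAT matches and 2 TATA matches, at -28 to -23 and, on the minus strand, at -205 to -200. It had no exact match to the octamer. H2AJ held 3 CCAAT matches with no exact match to the other 2 motifs. Of the 34 tested replication-dependent genes with a window, 28 held a CCAAT box, 23 a TATA box and 16 an octamer, which is 82.4%, 67.6% and 47.1%. Over all 35116 promoter windows of that length in the table, the shares were 34.6%, 11.5% and 1.77%. The histone shares use 1 window for each gene, while the shares over all windows may count a gene more than once. By family, the octamer was in 8 of 10 H2B and 7 of 10 H2A windows, in 1 of 6 H3 windows and in 0 of 6 H4 windows. These windows are not all separate DNA. Where 2 genes start head to head, their windows overlap, and 1 match can be counted for both. The H2AC6 octamer, on the minus strand at -130 to -123, also lies in the window of H2BC4. The H3 window with an octamer, that of H3C4, overlaps that of H2BC7, which also held 1. The family counts thus do not assign an octamer to 1 gene of a pair. Of 7 variant windows, 6 held a CCAAT box, 4 a TATA box and 1 an octamer. A match is a description of the letters and not evidence of binding.

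Of the 34 tested replication-dependent genes with a window, 25 lie on chromosome 6 and 9 on chromosome 1, while the 7 variants are spread over 7 chromosomes. H2A and H2B genes often lie head to head and share the DNA between their starts. H2AC6 and H2BC4 start 246 bases apart, and H2BC4 read -0.07 with Full, -0.24 with ECD and -0.43 with ICD, none of them called. H2BC11 and H2AC11 start 248 bases apart, and H2AC11 read -0.22 with Full, -0.10 with ECD and -0.19 with ICD, also not called. In a further pair 233 bases apart, neither H2BC8 nor H2AC8 was called with any construct. So each called member of these pairs has a partner that did not pass the test, and whether the partners differ from it was not tested.

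H4C3 was the one histone gene called higher than Empty. Like the other H4 genes of the clusters, it encodes the core histone H4. Its log2 intensities were 12.86, 12.80 and 12.62 with Full, 12.97, 13.02 and 13.04 with ECD and 13.03, 13.07 and 13.05 with ICD, against 12.59, 12.30 and 12.23 with Empty. All 9 construct arrays lay above all 3 Empty arrays. The gene rose with ICD by 0.68 ± 0.10 (1.60-fold, limma adjusted p = 0.0021) and with ECD by 0.64 (1.56-fold, adjusted p = 0.0017). The difference with Full was 0.39 (1.31-fold, adjusted p = 0.10). Both calls held in each fit that left out 1 array and in all 12 processing alternatives. The 6 other tested H4 genes were not called: H4C5 read 0.30 with Full, 0.28 with ECD and 0.32 with ICD, and the other 5 lay between -0.14 and 0.22 with the 3 constructs. With median scaling H4C5 was also called higher with ECD.

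**Figure D3:**
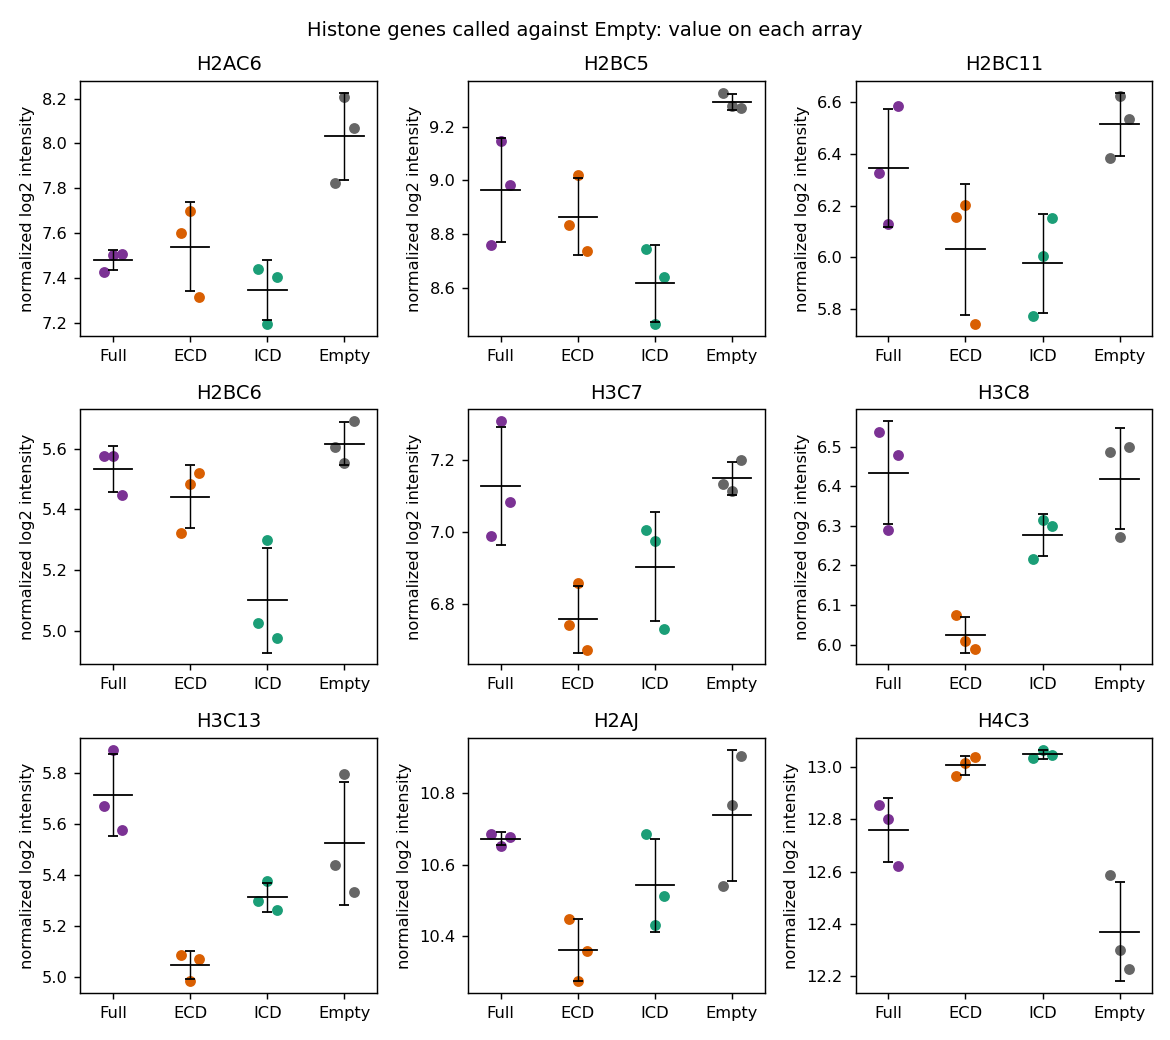
Each panel shows 1 histone gene called against Empty in at least 1 comparison, with the normalized log2 intensity of every array (y axis) by group (x axis). H2AC6 and H2BC5 lie below Empty on all 9 construct arrays, and H4C3 lies above it on all 9.

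Of the 7 tested replication-dependent H3 genes, 3 were called lower with ECD and 4 were not called. H3C7 and H3C8 encode H3.1, and H3C13 encodes H3.2, the forms of H3 laid down behind the replication fork. H3C7 read 6.99, 7.31 and 7.08 with Full, 6.74, 6.86 and 6.67 with ECD and 7.01, 6.98 and 6.73 with ICD, against 7.13, 7.11 and 7.20 with Empty. Its ECD and ICD arrays lay below Empty, and it fell with ECD by 0.39 ± 0.11 (1.31-fold lower, limma adjusted p = 0.031), with -0.24 for ICD (adjusted p = 0.18) and -0.02 for Full (adjusted p = 0.95).

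H3C8 read 6.54, 6.29 and 6.48 with Full, 6.08, 6.01 and 5.99 with ECD and 6.22, 6.31 and 6.30 with ICD, against 6.49, 6.27 and 6.50 with Empty. Its 3 ECD arrays were the lowest of the 12, and it fell with ECD by 0.39 ± 0.10 (1.31-fold lower, limma adjusted p = 0.020), with -0.14 for ICD (adjusted p = 0.40) and 0.02 for Full (adjusted p = 0.96). H3C13 read 5.67, 5.89 and 5.58 with Full, 5.09, 4.98 and 5.07 with ECD and 5.30, 5.38 and 5.26 with ICD, against 5.44, 5.80 and 5.34 with Empty. Here too the ECD arrays were the lowest of the 12, and the gene fell with ECD by 0.48 ± 0.12 (1.39-fold lower, limma adjusted p = 0.022), with -0.21 for ICD (adjusted p = 0.30) and 0.19 for Full (adjusted p = 0.48). Leaving out 1 array kept the ECD call of H3C7 in 0 of 6 fits, and of H3C8 and H3C13 in 2 of 6 each, and the H3C13 call also ended without background correction. The ECD differences were then -0.23 for H3C7, -0.19 for H3C8 and -0.16 for H3C13. The H3C13 values come from 1 probe. Its other probes on the array did not enter the tests, each above background on 1 of the 12 arrays.

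Of the other replication-dependent genes, the linker histones H1-1 and H1-2 were not called, at 0.17 and 0.04 with Full, -0.22 and -0.11 with ECD, and -0.27 and 0.01 with ICD. H2AC19, an H2A gene of the chromosome 1 cluster, read 0.03 with Full, -0.19 with ECD and -0.38 with ICD (limma adjusted p = 0.087), and all 3 of its ICD arrays lay below Empty. H2BC12, an H2B gene, read -0.17 with Full, -0.15 with ECD and -0.19 with ICD by the probe that stands for it (limma adjusted p = 0.59, 0.49 and 0.42). By its other probe, tested as its own feature, it read -0.44 with Full (adjusted p = 0.059), -0.70 with ECD (adjusted p = 0.00077) and -0.71 with ICD (adjusted p = 0.0013). That probe kept its ECD and ICD calls with median scaling, at -0.51 and -0.69. The 2 probes of H2AC18, an H2A gene, read 0.19 and -0.07 with Full, 0.05 and -0.15 with ECD, and -0.55 (adjusted p = 0.023) and -0.38 with ICD. With median scaling the adjusted p of -0.55 became 0.058. The probe that read -0.55 was also called between constructs, at 0.74 for Full minus ICD (limma adjusted p = 0.011) and 0.60 for ECD minus ICD (adjusted p = 0.028), and both calls stood with median scaling at 0.67 and 0.71. The probe that stands for the gene read 0.31 and 0.23 there, not called. In the fit of every entering probe, 4.68% of all probes were called for Full against ICD and 1.66% for ECD against ICD.

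Among the 7 variant genes, H2AJ was called against Empty. H2AJ encodes an H2A variant found in mammals, and it read 10.69, 10.65 and 10.68 with Full, 10.45, 10.27 and 10.36 with ECD and 10.68, 10.43 and 10.51 with ICD, against 10.54, 10.77 and 10.91 with Empty. All ECD arrays lay below all Empty arrays, while Full and ICD overlapped Empty. It fell with ECD by 0.38 ± 0.11 (1.30-fold lower, limma adjusted p = 0.035), with -0.20 for ICD (adjusted p = 0.28) and -0.07 for Full (adjusted p = 0.82). The call held in 1 of the 6 fits that left out 1 array, that without Empty replicate 1.

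H3-3A and H3-3B both encode H3.3, the H3 form that is placed outside DNA replication. H3-3B read 8.79, 8.60 and 8.74 with Full, 8.71, 9.00 and 8.94 with ECD and 8.97, 8.74 and 9.09 with ICD, against 8.59, 8.67 and 8.51 with Empty. Its ECD and ICD arrays lay above all Empty arrays, at 0.29 ± 0.11 with ECD (limma adjusted p = 0.10) and 0.34 with ICD (adjusted p = 0.083), and its Full arrays overlapped them at 0.12 (adjusted p = 0.68). H3-3A read 12.21, 12.46 and 12.10 with Full, 12.02, 12.11 and 12.13 with ECD and 11.86, 12.24 and 12.16 with ICD, against 12.32, 12.19 and 12.12 with Empty. Those groups overlapped, at 0.05 with Full and -0.12 with both ECD and ICD. A further H3-3A probe, tested as its own feature, was called with ECD at -0.39 (limma adjusted p = 0.034), a call that ended with median scaling, and read -0.38 with ICD (adjusted p = 0.052). The remaining H3-3A probe read -0.01 with Full, -0.18 with ECD (limma adjusted p = 0.32) and -0.16 with ICD (adjusted p = 0.42).

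H2AZ1 and H2AZ2 encode H2A.Z, a variant placed near gene starts. H2AZ1 read 13.24, 13.11 and 13.03 with Full, 13.26, 13.22 and 13.31 with ECD and 13.14, 13.22 and 13.17 with ICD, against 13.34, 13.18 and 13.19 with Empty. H2AZ2 read 6.46, 6.59 and 6.47 with Full, 6.37, 6.53 and 6.25 with ECD and 6.49, 6.32 and 6.40 with ICD, against 6.48, 6.30 and 6.27 with Empty. For both genes the groups overlapped, with differences from Empty between -0.11 and 0.16 (SE 0.09 for H2AZ1 and 0.10 for H2AZ2). The 95% intervals for ICD were -0.25 to 0.13 for H2AZ1 and -0.16 to 0.27 for H2AZ2.

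H2AX encodes the variant that is phosphorylated beside DNA breaks. It read 8.52, 8.89 and 8.76 with Full, 8.38, 8.35 and 8.27 with ECD and 8.43, 8.37 and 8.86 with ICD, against 8.46, 8.53 and 8.51 with Empty. The ECD arrays lay below all Empty arrays, the Full and ICD arrays overlapped them, and no difference from Empty was called (0.22 with Full, -0.17 with ECD and 0.05 with ICD). H1-10 encodes a linker histone that is not tied to replication. It read 8.64, 8.69 and 8.56 with Full, 7.98, 8.21 and 8.24 with ECD and 8.47, 8.39 and 8.71 with ICD, against 8.39, 8.28 and 8.29 with Empty. Its Full arrays lay above and its ECD arrays below all Empty arrays, without a call (0.31 with Full, -0.18 with ECD and 0.20 with ICD, limma adjusted p = 0.19, 0.29 and 0.25).

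Set side by side, the median difference from Empty with ICD was -0.19 for the 36 replication-dependent genes, 0.05 for the 7 variants and 0.01 for all features. With ECD it was -0.15 for replication-dependent genes, -0.12 for variants and -0.01 for all features, and with Full it was 0.03, 0.12 and 0.01. The replication-dependent median thus lay 0.24 log2 below the variant median with ICD (a difference of -0.24), and the same difference of medians was -0.02 with ECD, between -0.04 and 0.05 over the processing alternatives, and -0.08 with Full. The share of replication-dependent genes with a negative difference was 86.1% with ICD beside 47.6% of all features. It was 77.8% with ECD beside 51.2% of all features, and 44.4% with Full beside 48.8%. Of the 7 variants, 2 were negative with Full, 4 with ECD and 3 with ICD. These are descriptions of the tested genes with no test over the lists. The ICD difference of medians shrank to -0.14 without ICD replicate 3, to -0.10 without background correction and to -0.03 without the detection filter. Brightness also differed between the classes. Several replication-dependent genes, such as H2AC21 at 4.72 to 4.84 log2 with Empty, read below every tested variant. Others, such as H4C3, were bright. The dimmest tested variant, H2AZ2, read 6.27 to 6.48 with Empty. The part that brightness plays in the difference of medians was not tested.

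By family, the 10 tested replication-dependent H2A genes were all negative with ECD (median -0.21) and with ICD (median -0.37). The 10 H2B genes were negative in 8 cases with ECD (median -0.15) and in all 10 with ICD (median -0.19). The 7 H3 genes had a median of -0.24 with ECD, 5 of them negative, and of -0.22 with ICD, 6 of them negative. The 7 H4 genes had medians of 0.02 with ECD and -0.03 with ICD, with 3 and 4 negative. With median scaling the ECD medians were -0.05 for H2A (7 of 10 negative), -0.01 for H2B (5 of 10), -0.10 for H3 (4 of 7) and 0.11 for H4 (1 of 7), beside 0.11 for all features. The ICD medians were then -0.33 for H2A, -0.19 for H2B, -0.19 for H3 and 0.01 for H4. With Full the medians were -0.09 for H2A, -0.08 for H2B, 0.09 for H3 and 0.18 for H4.

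**Figure D4:**
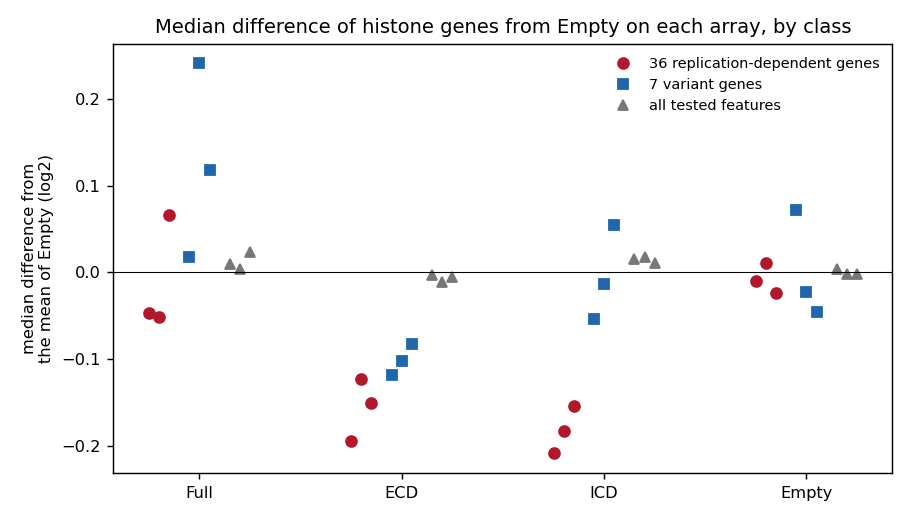
Each point is 1 array: the median difference of the replication-dependent, variant or all tested features from the mean of Empty in log2 units (y axis) by group (x axis). The replication-dependent medians of the ECD arrays lie between -0.19 and -0.12 and those of the ICD arrays between -0.21 and -0.15, below the Empty arrays at -0.02 to 0.01, and those of the Full arrays lie between -0.05 and 0.07. The Empty arrays are held near 0 because they are measured from their own mean.

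On single arrays the replication-dependent median relative to the mean of Empty was -0.05, -0.05 and 0.07 with Full, -0.19, -0.12 and -0.15 with ECD and -0.21, -0.18 and -0.15 with ICD, against -0.01, 0.01 and -0.02 with Empty. The ECD and ICD arrays did not overlap the Empty arrays, and the Full arrays lay on both sides of them. The Empty arrays are measured from their own mean, which holds their medians near 0. All construct arrays share the error of that mean, so the lack of overlap is partly built in and is no test. The variant median was 0.02, 0.24 and 0.12 with Full, -0.12, -0.10 and -0.08 with ECD and -0.05, -0.01 and 0.05 with ICD, against 0.07, -0.02 and -0.05 with Empty. For variants the ECD arrays lay below all Empty arrays, with the same limit. With median scaling the median ECD difference from Empty was -4e-04 for replication-dependent genes and 0.01 for variants, beside 0.11 for all features.

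The direct comparisons of constructs test differences between their effects. Between ECD and ICD, limma called 0 of 43 histone genes, beside 1.71% of all features in either direction (1.11% higher and 0.6% lower), and 6 passed an unadjusted p under 0.05. With every entering probe as its own feature, 1 histone probe was called, that of H2AC18 described above. H1-10 read -0.38 for ECD minus ICD (limma adjusted p = 0.096). H2BC6, lower than Empty with ICD, read 0.34 for ECD minus ICD (adjusted p = 0.14), so its difference between the 2 domains was not resolved.

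Between Full and ECD, 7 of 43 histone genes were called, all 7 higher with Full. That is 16.3% higher, beside 8.08% higher and 10.2% lower over all features (18.3% in either direction). H3C13 had a difference of 0.67 ± 0.12 (1.59-fold higher with Full, limma adjusted p = 0.0034), H3C8 of 0.41 (1.33-fold, adjusted p = 0.011) and H3C7 of 0.37 (1.29-fold, adjusted p = 0.028). The variant H1-10 had a difference of 0.49 ± 0.10 (1.40-fold, limma adjusted p = 0.0075) and H2AX one of 0.39 ± 0.13 (1.31-fold, adjusted p = 0.047). H2AC20, an H2A gene, read 7.98, 7.93 and 7.92 with Full, 7.60, 7.60 and 7.46 with ECD and 7.54, 7.69 and 7.59 with ICD, against 7.75, 7.78 and 7.80 with Empty. Its Full arrays lay above all others and its ECD and ICD arrays below Empty, for a Full minus ECD difference of 0.39 ± 0.08 (1.31-fold, limma adjusted p = 0.0082). H4C12 encodes histone H4 and was called at 0.36 ± 0.12 (1.29-fold, adjusted p = 0.041), although Full and ECD overlapped, at 6.99 to 7.44 with Full and 6.80 to 7.02 with ECD. Without background correction the differences were 0.22 for H3C13, 0.19 for H3C8, 0.22 for H3C7 and 0.23 for H4C12, all still called. H3C13 was the one of these calls that stood with median scaling, and 4 of 43 genes were called without Full replicate 3, ECD replicate 1 or ECD replicate 3. The H3C13 call rests on 1 probe, since the other probes for that gene did not enter the tests. The H3C13, H3C8, H1-10 and H2AC20 calls stood in all 6 fits that left out 1 array. That of H3C7 stood in 2 of 6, and those of H2AX and H4C12 in 1 of 6 each. With only the 2 groups compared, the H3C7, H2AX and H4C12 calls ended. The H2AX and H4C12 calls also ended with the replicate block and without the detection filter.

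Between Full and ICD, 2 of 43 histone genes were called, both higher with Full. That is 4.65% higher, beside 2.01% higher and 2.99% lower over all features (5% in either direction). H2BC6 had a difference of 0.43 (1.35-fold higher with Full, limma adjusted p = 0.032) and H2AC20 of 0.34 (1.26-fold, adjusted p = 0.039). A further 16 histone genes missed the adjusted threshold among the 18 with an unadjusted p under 0.05. The share of all features under that unadjusted threshold was not counted, and the 5% above is at the adjusted one. H4C3 read -0.29 for Full minus ICD and -0.25 for Full minus ECD (limma adjusted p = 0.11 for both). Neither call stood with median scaling, the H2BC6 difference was 0.14 and not called without background correction, 0 genes were called without Full replicate 1, Full replicate 3, ICD replicate 1 or ICD replicate 3, and 8 were called without Full replicate 2.

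**Figure D5:**
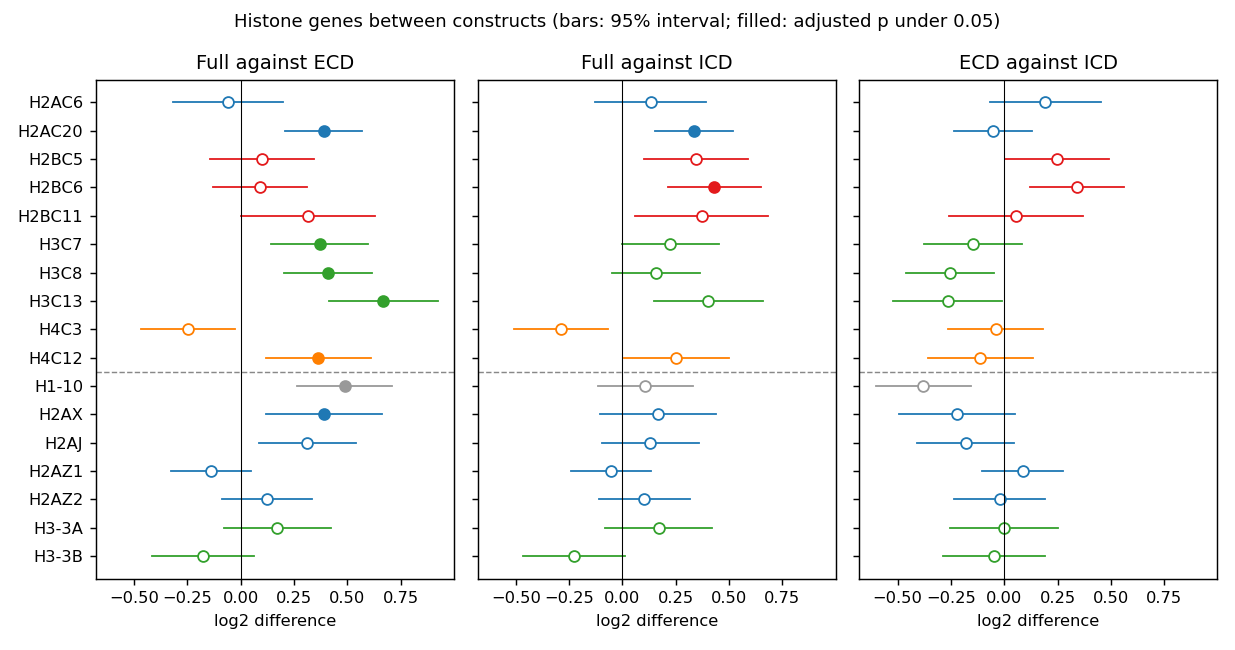
Points give the log2 difference between constructs (x axis, one panel per comparison) for the histone genes called in any of the 6 comparisons and the other variants (y axis, variants below the dashed line), coloured blue for H2A, red for H2B, green for H3, orange for H4 and grey for H1, with 95% intervals as bars and filled points where called. In Full against ECD the 7 called genes lie right of 0, with H3C13 at 0.67 (0.22 without background correction), and in ECD against ICD every point is open.

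The genes that make, process and place histones were read from lists. Of 15 listed genes for histone mRNA synthesis and 3′ processing, 12 were tested, with 0 called with Full, 2 higher and 1 lower with ECD, and 1 higher with ICD. That is 0% with Full, 25% with ECD and 8.33% with ICD, beside 1.08%, 11.4% and 6.01% of all features. Their median difference was 0.01 with Full, 0.03 with ECD and 0.07 with ICD. CPSF3, the nuclease that cuts histone pre-mRNA, rose with ECD by 0.35 (limma adjusted p = 0.035) and with ICD by 0.36 (adjusted p = 0.044). ERI1, an exonuclease that acts on the histone stem-loop, rose with ECD by 0.48 (limma adjusted p = 0.012), and LSM10, a protein of the U7 particle that guides the cut, fell with ECD by 0.44 (adjusted p = 0.028). With Full, limma called 0 of 12, and 2 passed an unadjusted p under 0.05. Of these 4 calls, ERI1 stood in 4 and LSM10 in 1 of 6 fits that left out 1 array, and the CPSF3 calls stood in none. LSM10 with ECD and CPSF3 with ICD also ended with median scaling, and ERI1 with ECD ended when the probes of a gene were averaged, at 0.29 (limma adjusted p = 0.13).

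Of 28 listed histone chaperones and deposition factors, 26 were tested, with 1 lower with Full, 1 higher and 1 lower with ECD, and 1 lower with ICD. That is 3.85% with Full, 7.69% with ECD and 3.85% with ICD, beside the same shares of all features, so the ECD and ICD shares were below those of all features. Their median difference was -0.02 with Full, 0.0095 with ECD and 0.05 with ICD. ZNHIT1, a subunit of the SRCAP complex that exchanges H2A.Z into nucleosomes, fell with ECD by 0.44 (limma adjusted p = 0.021) and with ICD by 0.41 (adjusted p = 0.042), and both calls ended with median scaling. SUPT16H, a subunit of the FACT complex, rose with ECD by 0.32 (adjusted p = 0.036). NASP, a carrier of H3 and H4, fell with Full by 0.44 (limma adjusted p = 0.023), and by 0.23 without background correction. The SUPT16H and ICD ZNHIT1 calls stood in 0, and the ECD ZNHIT1 and NASP calls in 1, of 6 fits that left out 1 array.

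Replication-dependent histones are known to be expressed in S phase, and 24 of 27 listed S-phase genes were tested. Called were 0 with Full, 1 with ECD and 3 with ICD, which is 0%, 4.17% and 12.5%, beside 1.08%, 11.4% and 6.01% of all features. Their median difference from Empty was -0.0018 with Full, 0.11 with ECD and 0.13 with ICD. RRM1, a subunit of the reductase that makes deoxyribonucleotides, rose with ECD by 0.45 (limma adjusted p = 0.012) and with ICD by 0.52 (adjusted p = 0.0087). RRM2, its partner subunit, rose with ICD by 0.34 (adjusted p = 0.045), and MCM6, a helicase subunit, by 0.35 (adjusted p = 0.027). With median scaling the RRM2 and MCM6 calls with ICD ended. The RRM1 calls stood in 4 of 6 fits that left out 1 array with ECD and in 5 of 6 with ICD, MCM6 in 1 and RRM2 in 0. With Full, limma called 0 of 24, and 2 passed an unadjusted p under 0.05. Hence with ECD and ICD the S-phase list had a median above 0 while the replication-dependent histone list had one below 0, although with median scaling the ECD histone median was -4e-04. In Full against ECD, 6 of 24 S-phase genes were called, all lower, and in Full against ICD 5 of 24, all lower. That is 25% and 20.8% lower, beside 10.2% and 2.99% lower of all features. The relation between the 2 lists was not tested.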

How the data were processed

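Total RNA from A549 cells was amplified with a kit of the type described above, and the product was hybridised to 12 single-colour Illumina BeadChips. The authors deposited probe intensities without normalization and detection p-values, and log2 values that equal quantile-normalized log2 intensities to within 5e-09. The scanner software and its settings were not stated in the labels. Intensities were background-corrected from the detection p-values, given an offset of 16, quantile-normalized and put on the log2 scale (neqc, limma 3.58.1, R 4.3.3). Of 47323 probes, 18728 passed the detection filter. The probe with the highest mean stood for a gene and unnamed probes were kept, giving 15338 features, of which 10912 carry a symbol. Of 30113 probes with 1 symbol, 30074 matched RefSeq by Entrez number. A further 8 probes have several symbols and 17202 have none. The 6 contrasts came from 1 fit over 12 arrays with Benjamini-Hochberg adjustment (residual df 8, prior df 6.50, median SD 0.15), and its code was checked on simulated data. The number of arrays limits the precision.

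Named genes were those called in any comparison, the tested variant and linker genes, the pair of genes with the highest mean in each core family, and up to 4 called genes of each pathway list. The members and lists were chosen with earlier results of these data known. Same-numbered arrays did not deviate together (r over 0.1 in 1 of 18 pairs), so replicate numbers were not used as pairs. No 2 arrays held identical values, and 0 columns of array values were left unused. Promoter windows (RefSeq, GRCh38.p14) were found for 73 of 78 genes and 41 of 43 tested genes, searched with Python 3.11.15, and the plots used matplotlib 3.10.9. Alternatives were no background correction, the authors' log2 values, an offset of 50, median scaling, other filters and probe rules, other variance models, a replicate block, fits of 2 groups, and leaving out each array.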

Additional observations from a re-analysis of the deposited data

Results flagged for a closer look

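A further probe for H2BC5, which is assigned to another RefSeq transcript of the gene and did not enter the tests, was above background on 3 of the 9 construct arrays (1 with Full, 2 with ECD and 0 with ICD) and on 0 of 3 Empty arrays. A detection p of 0.05 by itself passes about 1 array in 20, so this rests on few readings.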

How the results depend on the processing

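Among the named genes no difference turned its direction past the threshold under any alternative tried. The count of histone genes called with ICD (5) stayed within 1.5 times under the 12 alternatives and ran between 3 and 5 when 1 array was left out. With ECD the count of 8 became 4 with median scaling and ran between 1 and 4 without 1 array: 3 without ECD replicate 1 or 2, 1 without ECD replicate 3, 4 without Empty replicate 1, and 2 without Empty replicate 2 or 3. With Full the count of 1 became 2 without background correction, with the authors' log2 values, with an offset of 50 and with a trended robust variance, 3 with array weights, and 0 with median scaling, without the detection filter, with the replicate block and with only the 2 groups compared, and ran between 0 and 2 without 1 array. For ECD against ICD the count of 0 became 1 (H1-10) without background correction, with the authors' log2 values, with an offset of 50 and with a trended robust variance, and stayed 0 without any 1 array. For Full against ECD the count of 7 became 1 with median scaling, 11 with array weights and 4 with only the 2 groups compared, and ran between 4 and 7 without 1 array. For Full against ICD the count of 2 became 4 without background correction, with the authors' log2 values and with array weights, 5 with an offset of 50 and with a trended robust variance, 1 with the replicate block, and 0 with median scaling and with only the 2 groups compared, and ran between 0 and 8 without 1 array. The cause of these changes was not tested.

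With the replicate block the counts were 0 with Full, 7 with ECD and 4 with ICD against Empty, and 5 for Full against ECD. Of 12 arrays, 6 deviated most like an array of their own number. The replication-dependent minus variant difference of medians with ICD (-0.24) was -0.10 without background correction and with the authors' log2 values, -0.15 with an offset of 50 and -0.0301 without the detection filter. Without 1 array it ran between -0.27 and -0.14 with ICD, between -0.11 and -0.0025 with ECD and between -0.11 and -0.02 with Full. Probes near background, and the near-identical copies among replication-dependent genes, limit what single readings can show.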

Other observations

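Histone genes outside the symbol rule were also read: 8 of 14 listed ones were tested. H2AB2, a short H2A variant best known from testis, fell with ECD by 0.31 ± 0.08 (limma adjusted p = 0.031), a call that ended with median scaling and in each fit that left out 1 array. Its near-identical neighbour H2AB1 read 0.12 with Full, -0.30 with ECD (adjusted p = 0.052) and -0.11 with ICD. MACROH2A1, which encodes macroH2A, a variant with a large extra domain found in silent chromatin, read -0.06 with Full, 0.26 with ECD and 0.25 with ICD, with no call. CENPA, the H3 variant of the centromere, read 0.02 with Full, 0.09 with ECD and 0.15 with ICD, also with no call. Against Empty, limma called 0 of these 8 genes with Full, 1 with ECD and 0 with ICD. The shares of all features were 1.08%, 11.4% and 6.01%. At an unadjusted p under 0.05 there were 1 with Full, 3 with ECD and 2 with ICD, with no share of all features counted. In Full against ECD, 3 of the 8 were called, beside 18.3% of all features: H2AB2 at 0.46 (limma adjusted p = 0.0039), H2AB1 at 0.41 (adjusted p = 0.0095) and MACROH2A1 at -0.32 (adjusted p = 0.043). The H2AB2 call stood in all 6 fits that left out 1 array and ended with median scaling. In Full against ICD, H2AB2 was called at 0.35 (limma adjusted p = 0.032), beside 5% of all features, and that call ended with median scaling, with only the 2 groups compared and in 4 of the 6 fits that left out 1 array.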
